A study of Mus musculus with 18 samples.

Results

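Repetin (Rptn), filaggrin (Flg), filaggrin family member 2 (Flg2), hornerin (Hrnr), trichohyalin (Tchh) and trichohyalin-like 1 (Tchhl1) are S100 fused-type proteins, and their transcripts were followed in mouse dorsal skin on Affymetrix arrays. Members were all probe sets annotated with exactly 1 of these 6 symbols, which gave 7 of the 45101 probe sets on the array, for 5 of the 6 genes. Flg2 had no probe set annotated with its symbol and was not analysed here. Of the 7 probe sets, 5 varied over the 18 arrays, 1 per gene, and the remaining 2, both of Rptn, were constant. The animals of every group were male albino hairless HR-1 mice labelled 6 weeks of age. NT skin was left unstripped (6 arrays). TS skin was tape-stripped (6 arrays): over 4 weeks the left back was stripped with cellophane tape in 3 weekly sessions, and each session went on until transepidermal water loss reached 70 to 100 g/m2/h. WB skin was stripped in the same way in mice that also took winged bean extract by mouth (6 arrays), as a 0.3% carboxymethylcellulose suspension giving 200 mg/kg on each of 5 dosing days weekly, over 5 weeks of which 1 preceded the stripping. Whether NT and TS mice were given the carboxymethylcellulose vehicle is not stated in the labels. The labels call the 6 arrays of a group biological replicates. Values are the deposited ones, read as log2, and a difference of 1 is then a doubling.

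S100 fused-type proteins carry a calcium-binding S100 domain at the amino end, followed by a long run of repeats. Their genes lie side by side in the epidermal differentiation complex, a cluster that also holds the loricrin, involucrin, small proline-rich and late envelope genes. In the granular layer profilaggrin is stored in keratohyalin granules, then cut to filaggrin, which bundles keratin filaments and is finally broken down to amino acids that hold water in the stratum corneum; hornerin and repetin are built into the cornified layer and its protein envelope. Trichohyalin is best known from the inner root sheath and medulla of the hair follicle, where it is cross-linked to keratin filaments. Loss of filaggrin weakens the skin barrier, which is the structure that tape stripping damages.

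The sequences just before the annotated starts of these neighbouring genes are shown because 3 members rose and 2 fell in stripped skin. All 6 genes matched RefSeq promoters of build GRCm38.p6 on the plus strand of chromosome 3. Within the 250 bases before the start, the letters TGANTCA, with any base as N, occurred in 4 of the 6 members and in 6.75% of 32851 mouse promoters. The pattern reads the same on both strands and is looser than the core bound by AP-1 factors, which has C or G in the middle. The middle base was T in Rptn and A in Flg, Flg2 and Tchhl1, so none of these matches is that core. The windows of 60 bases below hold the match, in capitals.
Rptn, chr3:93393577-93393636: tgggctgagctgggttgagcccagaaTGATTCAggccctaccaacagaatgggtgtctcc
Flg, chr3:93273417-93273476: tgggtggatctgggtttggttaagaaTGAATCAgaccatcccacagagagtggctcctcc
Flg2, chr3:93197178-93197237: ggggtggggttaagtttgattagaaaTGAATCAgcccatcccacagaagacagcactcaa
Tchhl1, chr3:93468641-93468700: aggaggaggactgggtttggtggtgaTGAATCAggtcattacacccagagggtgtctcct
The first base of the match lay 96 bases before the start in Rptn, 103 in Flg, 69 in Flg2 and 87 in Tchhl1. Flg and Flg2 also shared an unbroken stretch of 12 bases next to it, CCATCCCACAGA, beginning 94 and 60 bases before their starts. Flg and Tchhl1 shared 11 bases ahead of it, CTGGGTTTGGT, and Rptn and Tchhl1 shared 11 bases after it, GGGTGTCTCCT.

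Hrnr and Tchh are shown over all 250 bases, since neither held TGANTCA there; the capitals in Hrnr mark TATAAA, the TATA box letters, searched on both strands and sharing no base with TGANTCA in any member.
Hrnr, chr3:93319499-93319748: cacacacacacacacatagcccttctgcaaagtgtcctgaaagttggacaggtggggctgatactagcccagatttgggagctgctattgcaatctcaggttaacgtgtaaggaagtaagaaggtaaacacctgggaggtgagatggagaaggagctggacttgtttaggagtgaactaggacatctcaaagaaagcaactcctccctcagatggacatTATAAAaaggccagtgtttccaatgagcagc
Tchh, chr3:93442080-93442329: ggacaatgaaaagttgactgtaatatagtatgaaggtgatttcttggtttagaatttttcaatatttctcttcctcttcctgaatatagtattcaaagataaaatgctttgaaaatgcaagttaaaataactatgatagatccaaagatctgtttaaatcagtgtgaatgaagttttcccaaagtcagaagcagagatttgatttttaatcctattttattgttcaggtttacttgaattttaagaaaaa
TATAAA occurred in 3 of the 6 members (31 bases before the start in Rptn and Hrnr, 53 in Flg) and in 12.4% of promoters. TGANTCA stood in 2 members that rose in stripped skin (Rptn and Flg) and in 1 that fell (Tchhl1), and was not found in 1 that rose (Hrnr) and 1 that fell (Tchh). TATAAA stood in the 3 that rose and in neither that fell. The directions of these 5 genes were known before the letters were sorted by them, so this split was not tested. Only the exact letters were searched, and near variants of TATAAA were not counted in any member. These are matches of letters in 1 window.

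Over the probe sets that varied, arrays of the same group correlated at r of 0.901 to 0.990, NT with TS arrays at 0.838 to 0.939, and WB arrays with TS at 0.585 to 0.685 and with NT at 0.493 to 0.625. Array medians lay between 6.90 and 6.95. The array's control probe sets for the 3′ and 5′ ends of beta-actin, whose difference shows how far labelled RNA reaches from the 3′ end, differed by -0.51 ± 0.10 (SD, n = 6) in NT, 0.16 ± 0.07 in TS and 5.69 ± 0.25 in WB; for Gapdh the values were -0.59 ± 0.11, -0.44 ± 0.11 and 3.70 ± 0.36. The actin difference was separated between every pair of groups (exact permutation test, two-sided, p = 0.00216, the smallest that 6 against 6 arrays allow, adjusted p = 0.0026). The array NT 5 read 19.04 for albumin (Alb), which was at most 6.96 on the other 17 arrays, and the mean of 10 liver markers was 14.56 on NT 5 and 6.34 to 6.45 on the others. Without NT 5 the members' differences between TS and NT were 8.33 for Rptn, 1.11 for Flg, 2.02 for Hrnr, -2.06 for Tchh and -0.73 for Tchhl1, and all 5 still passed. Of the keratins among the keratinocyte markers, Krt1, Krt10, Krt5 and Krt14 had group means of 10.05 or more in every group. Krt5 and Krt14 were nonetheless lower in WB (10.05 and 11.28) than in TS (13.25 and 14.16). Krt15 was 11.65 in NT and 7.90 in WB, and Krt2 was 6.30 to 7.26.

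In the comparison of stripped with unstripped skin, Rptn, Flg and Hrnr rose and Tchh and Tchhl1 fell. All 5 varying members thus passed the test (limma, Benjamini-Hochberg adjusted p under 0.05 and a difference of at least 0.01), where 10.1% of all 45037 probe sets tested and 38.1% of the 11946 varying ones passed. The median difference was 1.05 over the members and 0.00 over all varying probe sets. In 3 of the 5 members the TS and NT arrays did not overlap, against 24.9% of varying probe sets.

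**Figure D1:**
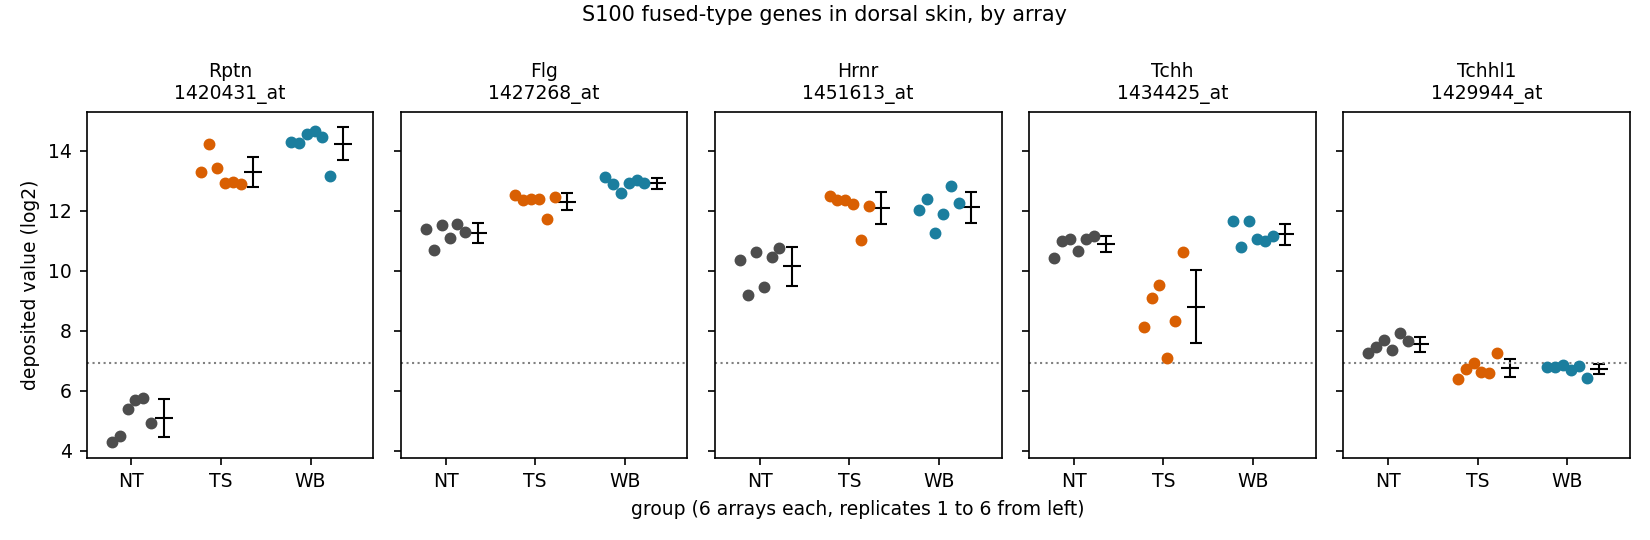
Deposited log2 value (vertical axis) of the varying probe set of each of the 5 measured genes on each array, by group; points are arrays, the cross bar and whiskers the mean and SD of 6 arrays, and the dotted line the median of all values on all arrays (6.93). Rptn lies below that line in NT and above 12.8 in TS and WB, and Tchh is low and scattered in TS.

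Rptn, a cornified envelope precursor, showed the largest rise of the 45037 probe sets tested. The 6 NT arrays ran from 4.28 to 5.76 with a median of 5.15. The 6 TS arrays ran from 12.87 to 14.23 with a median of 13.13. All NT values lay below the array medians and all TS values more than 7 above the highest NT value, so the groups were far apart; because the lower mean lies where the table gives no measure of background, no fold is stated. The mean went from 5.09 ± 0.62 to 13.28 ± 0.51, a difference of 8.20 (SE 0.32, 95% interval 7.51 to 8.89, adjusted p = 2.6e-10). These values come from the probe set 1420431_at. The remaining Rptn probe sets, 1433210_at and 1433211_at, stood at 6.75 and 6.24 on every array of all 3 groups, so they neither repeat nor contradict it.

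Flg, which encodes the profilaggrin precursor, was already high in unstripped skin and rose by 1.05. NT arrays ran from 10.68 to 11.56 (median 11.35). TS arrays ran from 11.71 to 12.51 (median 12.39). The lowest stripped array, TS 5, was 11.71 and the highest unstripped array, NT 5, was 11.56, so the groups were separate but close at that edge. The mean rose from 11.26 ± 0.33 to 12.30 ± 0.30 (SE of the difference 0.16, adjusted p = 0.000305), or 2.06-fold (95% interval 1.63 to 2.61).

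Hrnr, whose product resembles filaggrin in its glycine- and serine-rich repeats, rose by 1.96. NT arrays ran from 9.18 to 10.75 (median 10.42), and TS arrays from 11.03 to 12.48 (median 12.28). NT 2 and NT 4 were the low arrays of their group and TS 5 that of the stripped group, and the groups did not overlap. The mean rose from 10.14 ± 0.66 to 12.10 ± 0.53 (SE of the difference 0.33, adjusted p = 0.000698), or 3.88-fold (95% interval 2.38 to 6.33).

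Tchh, the inner root sheath protein trichohyalin, fell by 2.09 and scattered widely in stripped skin. NT arrays ran from 10.43 to 11.14 (median 11.02), and TS arrays from 7.10 to 10.61 (median 8.71). TS 6, the highest, lay within the unstripped range and alone made the groups overlap, while TS 4 was the lowest. The mean fell from 10.89 ± 0.28 to 8.80 ± 1.22 (SE of the difference 0.43, adjusted p = 0.00334), or 4.26-fold (95% interval 2.24 to 8.08). Without TS 6 the difference was -2.45 (adjusted p = 0.0003).

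Tchhl1, a relative of trichohyalin, was close to the array median in all groups and fell by 0.80. NT arrays ran from 7.24 to 7.91 (median 7.55), and TS arrays from 6.37 to 7.24 (median 6.67). Again TS 6 was the highest stripped array, and it alone reached the lowest unstripped one. The mean fell from 7.54 ± 0.25 to 6.75 ± 0.30 (SE of the difference 0.14, adjusted p = 0.000952), with no fold given because the TS mean lies below the median of all values.

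**Figure D2:**
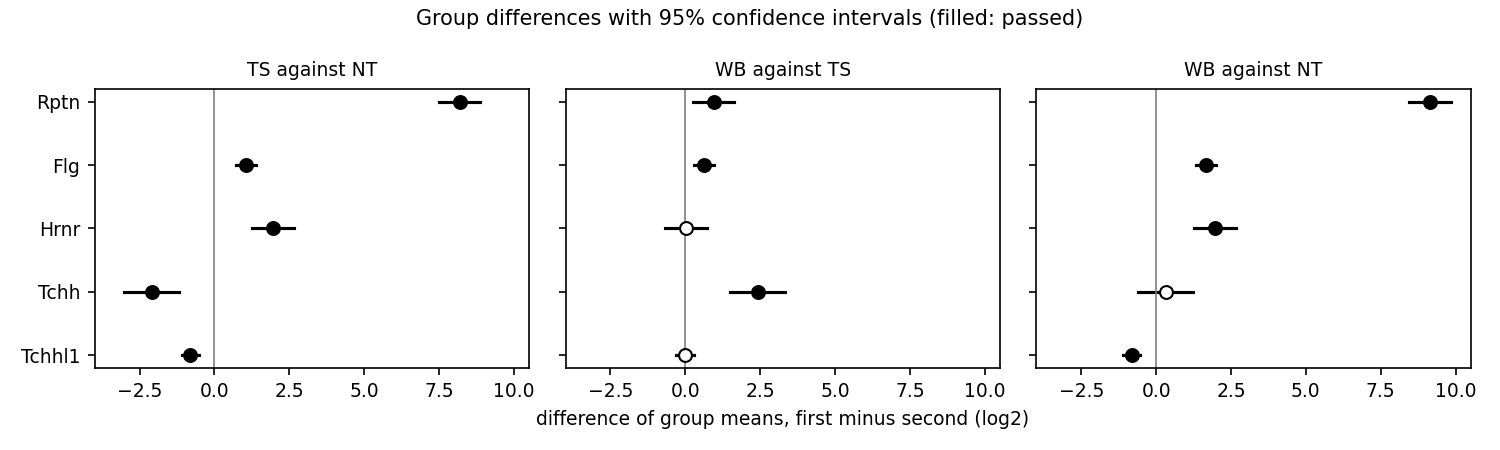
Difference of group means (horizontal axis, log2, first group minus second) of each measured gene in the 3 comparisons; bars are 95% confidence intervals from the limma fit, filled points passed and open points did not. The signs split into Rptn, Flg and Hrnr above 0 and Tchh and Tchhl1 below 0 in TS against NT, and in WB against TS the largest difference is that of Tchh (2.41).

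Hair follicle genes fell in the same samples as Tchh and Tchhl1. Of 12 inner root sheath genes on the array 9 varied, of which 8 fell and 1 rose in TS against NT (median of varying genes -1.62). Over all varying probe sets 38.1% passed in that comparison. The keratins Krt27 (-2.84, SE 0.57, adjusted p = 0.00244), Krt71 (-1.77, SE 0.35, adjusted p = 0.0025) and Krt26 (-1.42, SE 0.26, adjusted p = 0.00134) build the filaments of that sheath. The gene that rose was Tgm3 (1.66, SE 0.26, adjusted p = 0.000429), a transglutaminase of both hair and epidermis. The mean of the 9 genes ranged from 8.65 to 9.72 on NT arrays, 7.06 to 9.08 on TS arrays and 8.17 to 9.06 on WB arrays. On stripped arrays its order was that of Tchh, lowest on TS 4 (7.06) and TS 1 (7.35) and highest on TS 6 (9.08). In whole skin, fewer follicle cells and less RNA per cell cannot be told apart. Skeletal muscle genes (10 of 12 fell, none rose; means of 12.44 to 13.90 on NT and 10.49 to 11.01 on TS arrays) and adipocyte genes (5 of 6 fell, none rose; 11.19 to 11.92 and 9.61 to 10.40) also moved with stripping, and their part in the members' differences was not tested.

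Markers of suprabasal keratinocytes moved with Flg and Hrnr. Of 6 on the array 4 rose and 1 fell in TS against NT, with Krt1 at 1.34 (SE 0.17, adjusted p = 6.4e-05), Krt10 at 0.55 (SE 0.09, adjusted p = 0.000723) and the desmosomal cadherin Dsc1 at 2.39 (SE 0.17, adjusted p = 7.1e-07) among those that rose; Krt2, a late suprabasal keratin, fell by 0.87 (adjusted p = 0.0248). The mean of the 6 ranged from 10.44 to 11.37 on NT arrays, 11.38 to 12.07 on TS arrays and 11.90 to 12.17 on WB arrays. Its lowest arrays were NT 2 (10.44), TS 5 (11.38) and WB 3 (11.90), which were also the lowest arrays of Hrnr and of Flg in their groups. Basal keratinocyte markers moved upward too: of 7, 3 rose and 1 fell in TS against NT, where 38.1% of all varying probe sets passed. Their median difference was 0.63, against 0.73 for the suprabasal markers. The part of either set of markers in the members' rises was not tested.

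**Figure D3:**
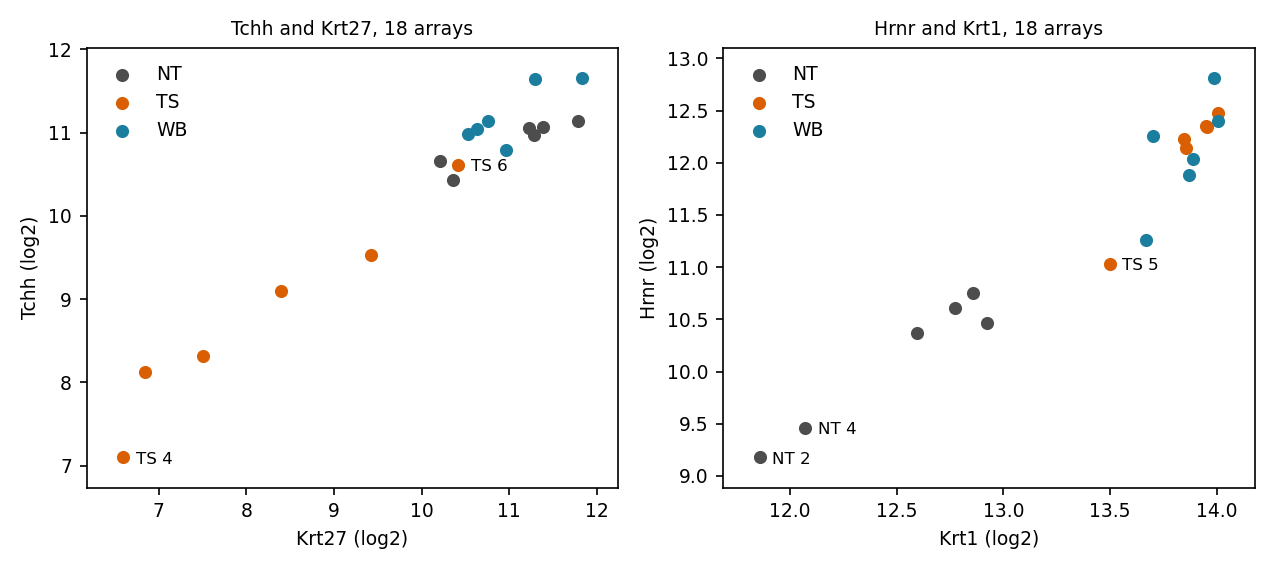
Value on each of the 18 arrays of Tchh against the inner root sheath keratin Krt27 (left) and of Hrnr against the suprabasal keratin Krt1 (right), in log2, coloured by group. The TS arrays span the left plot from TS 4 (Krt27 6.59, Tchh 7.10) to TS 6 (10.42 and 10.61), and NT 2, NT 4 and TS 5 are the low arrays of their groups in the right plot.

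The genes whose pattern over the 18 arrays was most like each member's were searched among 10902 probe sets with a range of at least 0.5. For Rptn they were the kallikrein Klk13 (r = 0.992), the small proline-rich Sprr2d (0.989) and the stress keratin Krt6b (0.988). For Flg they were H60c (0.977), the thioesterase Them5 (0.975) and the membrane protease Tmprss4 (0.973). For Hrnr they were Krt1 (0.968), the metallothionein Mt4 (0.962) and Krt10 (0.959). For Tchh they were Prr9 (0.977), Krt27 (0.975) and the hair keratin-associated Krtap4-2 (0.972), and for Tchhl1 the keratins Krt71 (0.938), Krt81 (0.926) and Krt33a (0.925). Group differences enter these values. After each group's mean was taken away, r was 0.76 to 0.84 for the genes like Rptn, 0.78 to 0.89 for Flg, 0.87 to 0.88 for Hrnr, 0.93 to 0.94 for Tchh and 0.76 to 0.83 for Tchhl1. The genes were picked by r over the same arrays, which holds these deviations, so the second r is no independent check. Each r is a description in which both genes were read from the same labelled RNA on each array.

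Between members, the highest r was that of Flg with Hrnr in NT and TS and that of Rptn with Tchhl1 in WB, but none of 30 relations (10 pairs in 3 groups of 6 arrays) passed after adjustment. For Flg with Hrnr, r was 0.879 in NT (exact permutation p = 0.025, adjusted 0.403; rho 0.60, exact p = 0.242, adjusted 0.892). It was 0.969 in TS (exact permutation p = 0.0583, adjusted 0.438; rho 0.49, exact p = 0.356, adjusted 0.97) and 0.704 in WB (exact permutation p = 0.119, adjusted 0.548; rho 0.31, exact p = 0.564, adjusted 0.973). Without the 2 arrays farthest from the median of Flg these became -0.48, -0.85 and 0.61. Leaving those arrays out narrows the range of Flg by design, so the change in r cannot show what the relation rests on. The same limit holds for the other pairs below. For Tchh with Tchhl1, r was 0.833 in NT (exact permutation p = 0.0403, adjusted 0.403; rho 0.77, exact p = 0.103, adjusted 0.771), 0.842 in TS (exact p = 0.0333, adjusted 0.403; rho 0.83, exact p = 0.0583, adjusted 0.771) and 0.221 in WB (exact p = 0.743, adjusted 0.907; rho 0.09, exact p = 0.919, adjusted 1). Without the 2 arrays farthest from the median of Tchh they became 0.44, 0.96 and -0.80. For Rptn with Tchhl1 in WB, r was 0.846 (exact permutation p = 0.128, adjusted 0.548; rho 0.37, exact p = 0.497, adjusted 0.973) and 0.851 without the 2 arrays farthest from the median of Rptn.

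Among the other cornified envelope genes, 33 of 34 on the array varied, of which 17 rose and 1 fell in TS against NT (median 0.56). For this and the filaggrin processing list below, the share over all varying probe sets that passed was 38.1%. This list shares Krt1, Krt10, Krt2 and Lor with the suprabasal markers and Tgm3 with the inner root sheath genes. Sprr1b (5.09, SE 0.46, adjusted p = 4.6e-06) and Sprr2d (4.63, SE 0.35, adjusted p = 9.4e-07), cross-bridging proteins of the envelope, rose, as did Tgm1 (1.23, SE 0.11, adjusted p = 4.4e-06), which joins envelope proteins. Loricrin (Lor), the main envelope protein, differed by 0.51 (SE 0.23, adjusted p = 0.169). Of 18 genes that process or break down filaggrin 12 varied, of which 7 rose and 3 fell (median 0.35). Casp14, a caspase that helps degrade filaggrin, rose by 2.35 (SE 0.23, adjusted p = 8.7e-06), and Blmh, which cuts its fragments to amino acids, rose by 2.23 (SE 0.18, adjusted p = 1.7e-06). Asprv1, a protease that cuts the profilaggrin linker, rose by 0.68 (SE 0.17, adjusted p = 0.0117). Among the 3 that fell, Pepd differed by -0.78 (SE 0.07, adjusted p = 2.8e-06) and Pcsk6 by -0.45 (SE 0.06, adjusted p = 6.7e-05). Padi3, also among those that fell, is on the inner root sheath list too. Hal, the histidase that forms urocanic acid, differed by -0.21 (SE 0.23, adjusted p = 0.752).

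**Figure D4:**
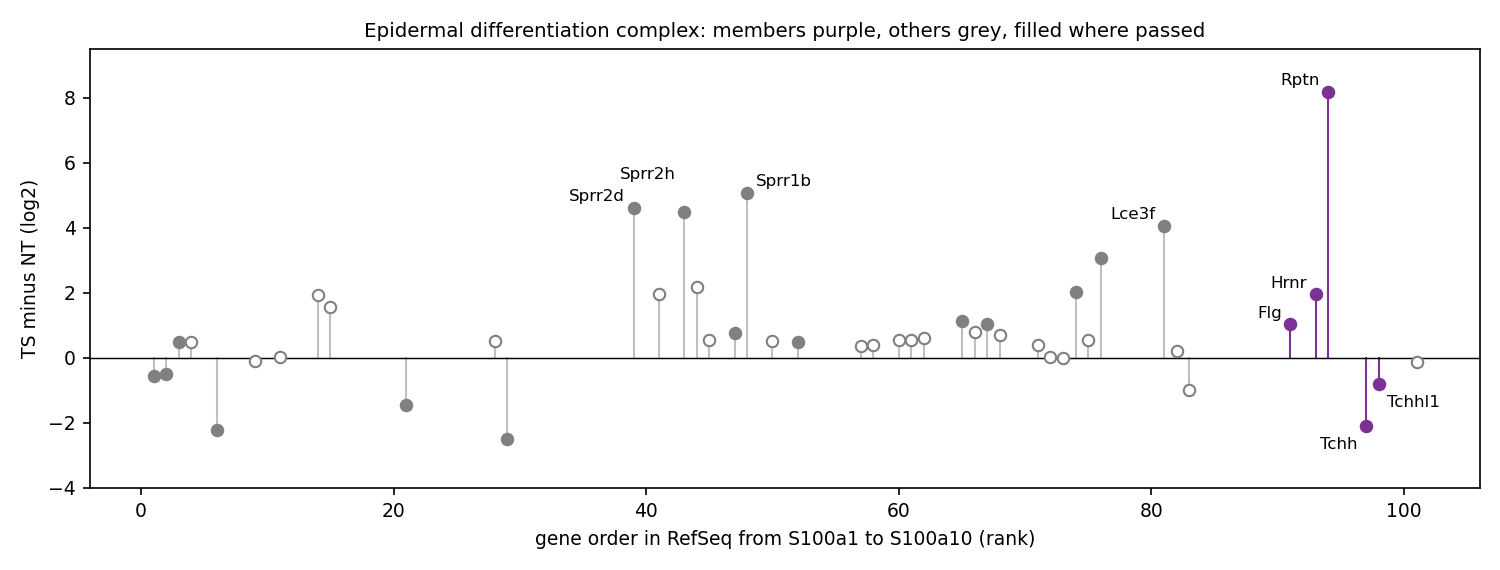
Difference between TS and NT (vertical axis, log2) of the 45 genes with a varying probe set among the 101 that RefSeq lists from S100a1 to S100a10, in their order on chromosome 3; members are purple, other genes grey, and filled points passed. Rptn (8.20) stands between Hrnr (1.96) and Tchh (-2.09), and the other rises above 4 are Sprr2d, Sprr2h, Sprr1b and Lce3f.

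The 5 measured members lie close together on the chromosome and differed in sign: in RefSeq order Flg, Hrnr and Rptn, which rose, are followed by Tchh and Tchhl1, which fell. This stretch, chosen after the values were seen, holds 40 other genes with a varying probe set between S100a1 and S100a10, of which 11 rose and 5 fell in TS against NT (median 0.53). Among all varying probe sets 38.1% passed there, so the share in this stretch is near the one at large. The next measured gene on the side of Flg, Lce1m, differed by -0.99 (SE 0.43) and the next on the side of Tchhl1, S100a10, by -0.13 (SE 0.05), both without passing.

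The comparison of WB with TS set stripped skin of extract-fed mice against stripped skin without the extract. The groups also differed in the control 3′ minus 5′ difference, and extract and RNA state cannot be told apart here. Tchh rose by 2.41, Rptn by 0.95 and Flg by 0.61, while Hrnr and Tchhl1 differed by 0.01 and -0.02 without passing. Thus 3 of 5 members passed, all upward, where 23.6% of all probe sets and 88.8% of the varying ones passed; 2 of 5 did not overlap between groups, against 77.6% of varying probe sets. With only 5 members, these shares are not read as a difference from varying probe sets at large. The median difference was 0.61 over the members and 0.09 over all varying probe sets. Beside these values stands the actin 3′ minus 5′ difference, 5.69 in WB and 0.16 in TS; where along each transcript the members' probe sets lie was not analysed here, and the part of this difference in the members' values was not tested.

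On the WB arrays Tchh ran from 10.79 to 11.66 with a median of 11.09. All 6 lay above the highest stripped array, TS 6, and spread far less than the TS arrays. The mean was 11.21 ± 0.36 against 8.80 ± 1.22 in TS (SE of the difference 0.43, adjusted p = 0.000204), or 5.32-fold higher (95% interval 2.80 to 10.1). The inner root sheath list did not move as a block: 4 of its 9 varying genes rose, 1 fell and the median was 0.34. Krt27 (2.80, SE 0.57, adjusted p = 0.000587) and Krt26 (1.40, SE 0.26, adjusted p = 0.000287) rose with Tchh, whereas Krt71 differed by -0.61 (SE 0.35, adjusted p = 0.183). Tchhl1 ran from 6.42 to 6.85 on the WB arrays (median 6.79), all inside the TS range, with a 95% interval of the difference of -0.32 to 0.28 (adjusted p = 1).

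Rptn ran from 13.16 to 14.66 on the WB arrays, with a median of 14.38. Of these 5 exceeded the highest stripped array, TS 2 (14.23), and WB 6 lay among the TS values. The mean was 14.23 ± 0.55 against 13.28 ± 0.51 (SE of the difference 0.32, adjusted p = 0.0243), or 1.93-fold (95% interval 1.20 to 3.11). The call was lost without TS 4 (adjusted p = 0.0518), TS 5 (0.0514), TS 6 (0.0533), WB 3 (0.0502) or WB 4 (0.0539), and after quantile normalization the difference was 1.58 (adjusted p = 0.000476).

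Flg ran from 12.59 to 13.12 on the WB arrays, with a median of 12.93. All were above the highest stripped array, TS 1 (12.51), the nearest being WB 3 at 12.59. The mean was 12.91 ± 0.18 against 12.30 ± 0.30 (SE of the difference 0.16, adjusted p = 0.00421), or 1.53-fold (95% interval 1.21 to 1.93). After quantile normalization the difference was 0.95 (adjusted p = 1.6e-05). Hrnr ran from 11.26 to 12.81 on the WB arrays (median 12.15), and the groups overlapped widely, with a 95% interval of the difference of -0.69 to 0.72 (adjusted p = 1).

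Other genes of the pathway differed in both directions, in a comparison where 88.8% of all varying probe sets passed. Of the 33 varying envelope genes 8 rose and 13 fell (median -0.51), and of the 12 varying filaggrin processing genes 2 rose and 9 fell (median -1.07). Casp14 fell by 2.09 (SE 0.23, adjusted p = 1.0e-06), Asprv1 by 2.47 (SE 0.17, adjusted p = 3.9e-09) and Hal by 3.08 (SE 0.23, adjusted p = 9.2e-09), while Blmh rose by 1.58 (SE 0.18, adjusted p = 1.8e-06). Of 7 basal keratinocyte markers 2 rose and 5 fell, among them Krt5 (fell by 3.20, SE 0.23, adjusted p = 6.9e-09). Of the 6 suprabasal markers 1 rose, Dsc1 (0.85, SE 0.17, adjusted p = 0.00066), and none fell. Of 12 skeletal muscle markers 8 fell and none rose, and of 6 adipocyte markers 4 fell and 1 rose (Lpl, 0.68, adjusted p = 4.8e-05). Their means on WB arrays were 7.27 to 8.73 and 8.23 to 8.65, and their part was not tested.

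Against unstripped skin, WB skin was far higher in Rptn and higher in Hrnr and Flg, lower in Tchhl1, and Tchh did not pass. Thus 3 members rose and 1 fell of 5, against 23.7% of all and 89.3% of varying probe sets that passed, and 4 of 5 did not overlap between groups, against 81.7% of varying probe sets. These shares are near those of varying probe sets at large. Rptn differed by 9.14 (SE 0.32, 95% interval 8.46 to 9.83, adjusted p = 9.2e-13), Hrnr by 1.97 (SE 0.33, adjusted p = 1.0e-04) and Flg by 1.66 (SE 0.16, adjusted p = 1.9e-07), or 3.16-fold for Flg and 3.92-fold for Hrnr. Tchhl1 differed by -0.82 (SE 0.14, adjusted p = 0.000117). Tchh differed by 0.32 (SE 0.43, 95% interval -0.60 to 1.25, adjusted p = 0.646). Its SE comes from the fit of all groups, so the wide scatter of the TS arrays (SD 1.22) enters it. The SD was 0.28 in NT and 0.36 in WB. The call was the same when only NT and WB arrays were fitted. This comparison shares its NT arrays with that of TS and NT and its WB arrays with that of WB and TS, and the WB actin 3′ minus 5′ difference was 6.19 above that of NT.

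By group mean the order was NT, TS, WB for Rptn and Flg, and every neighbouring pair passed the test. Between WB and TS the Rptn arrays overlapped and its call was lost when some single arrays were left out. In that comparison 88.8% of all varying probe sets passed. For Hrnr NT was lowest and TS and WB (12.10 and 12.11) did not differ beyond their spread. For Tchh TS was lowest, and NT and WB (10.89 and 11.21) did not pass and had overlapping arrays. For Tchhl1 NT was highest and TS and WB (6.75 and 6.72) did not differ beyond their spread.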

How the data were processed

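Dorsal skin RNA (Isogen, then RNeasy) was labelled from 100 ng, per the labels' protocols. The deposited values, from 2.93 to 19.04, were read as log2; their log base, summarisation and normalization are not given in the sources used here. Symbols came from the platform annotation (34945 probe sets with 1 symbol, 932 with several, 9160 with none); other lists used the gene's brightest probe set. Without 64 control probe sets, 45037 entered 1 model of all 18 arrays (limma 3.58.1 under R 4.3.3: lmFit, eBayes, no covariate, two-sided, Benjamini-Hochberg over all). The fit was tested on simulated data. A probe set passed at adjusted p under 0.05 and a difference of at least 0.01; it varied if its range was at least 0.01. A fold is given where the lower mean reached the median of all values (6.93). Control differences used exact permutation, two-sided, adjusted over 6 tests. Named were all members and the 3 genes most alike per member. Genes among the 4 of smallest p in TS against NT or in WB against TS of each list were also named. Krt2, Padi3, Lce1m, S100a10 and the tall rises in the plot of neighbouring genes were named after their values were seen. Members and lists were chosen with earlier results of these data known. Alternatives tried were other normalizations, filters, weights, variance priors and sets of arrays. The number of arrays limits the precision.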

Additional observations from a re-analysis of the deposited data

Results flagged for a closer look

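Of 21 groups of 6 arrays (5 probe sets and 2 control differences in 3 groups), 4 held an array whose gap to its nearest neighbour exceeded 0.625 of the group's range, where chance gives about 1 in 20. Flg and Hrnr were both lowest on TS 5, at 11.71 and 11.03, with the next TS arrays at 12.36 and 12.14. Without TS 5 their differences between TS and NT were 1.16 (adjusted p = 6.6e-05) and 2.17 (adjusted p = 0.000253). Rptn was lowest on WB 6, at 13.16, with the next WB array at 14.27; without WB 6 its difference between WB and TS was 1.16 (adjusted p = 0.00432). The Gapdh 3′ minus 5′ difference was highest on WB 2, at 4.41, with the next WB array at 3.71.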

How the results depend on the processing

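Each member's difference was recomputed under 8 other settings and without each array in turn. In TS against NT all 5 varying members kept direction and call throughout. Rptn on 1433210_at or 1433211_at alone gave 0.00 in all 3 comparisons. Leaving out 1 array gave 8.01 to 8.33 for Rptn, 0.93 to 1.16 for Flg, 1.77 to 2.17 for Hrnr, -2.45 to -1.75 for Tchh and -0.90 to -0.73 for Tchhl1. In WB against TS it gave 0.86 to 1.16 for Rptn (adjusted p = 0.00432 to 0.0539), -0.20 to 0.18 for Hrnr and -0.10 to 0.077 for Tchhl1; Hrnr and Tchhl1, not called, turned sign there. Tchhl1 also turned to 0.00 (0.0016) after quantile normalization and 0.013 after median centring. In that comparison quantile normalization gave 1.58 for Rptn, 0.95 for Flg (adjusted p = 1.6e-05) and 0.30 for Hrnr (adjusted p = 0.38), against 0.95, 0.61 and 0.01 as deposited; Flg and Tchh kept their calls under all settings run. Counts of calls moved with scaling: quantile normalization gave 6893 against 4551 in TS against NT, 39851 against 10612 in WB against TS and 41371 against 10667 in WB against NT, and median centring gave 43993 in both WB comparisons. These counts include constant probe sets that a scaling moves by over 0.01; among varying ones, quantile normalization called 4691, 10907 and 10858. The share called higher went from 49.2% to 69.2%, 53.1% to 88.2% and 51.2% to 88.3% after quantile normalization, but to 54.7%, 56.7% and 55.4% among varying probe sets; after median centring it was 88.8% and 88.3% in the WB comparisons. The Gapdh 3′ minus 5′ difference of TS against NT, 0.15 (exact permutation p = 0.0476, adjusted 0.0476), was 0.12 after quantile normalization (exact permutation, adjusted p = 0.0866) and 0.11 to 0.18 without 1 array, and lost its call when any of 9 of the 12 NT and TS arrays was the 1 left out. Same-numbered arrays did not deviate together (r over 0.1 in 4 of 18 pairs), so the numbers were not taken to pair them. With the replicate block, 4171, 10510 and 10592 probe sets passed in the 3 comparisons, and the block changed no member's call. The cause of these changes with the setting was not tested. Without a measure of background, differences that reach below the array median are uncertain in size.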

Other observations

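Transcription factors that act on the epidermal differentiation complex formed a further list. Of 22 on the array 17 varied, and Trp63 among them is also a basal keratinocyte marker. In TS against NT 9 rose and 1 fell, where 38.1% of all varying probe sets passed. In WB against TS 12 rose and 4 fell, where 88.8% of all varying probe sets passed, so that share is near the one at large. The actin 3′ minus 5′ difference was 5.69 in WB and 0.16 in TS, and its part in these values was not tested. In TS against NT Grhl3 (0.92, SE 0.13, adjusted p = 0.000192), Ovol1 (1.04, SE 0.13, adjusted p = 6.6e-05) and Klf4 (0.73, SE 0.11, adjusted p = 0.000381), factors of terminal keratinocyte differentiation, rose. In WB against TS the AP-1 subunit Fosl2 (1.30, SE 0.10, adjusted p = 2.7e-08) and Cebpb (0.79, SE 0.07, adjusted p = 3.7e-08) rose, whereas Ovol1 fell by 1.45 (SE 0.13, adjusted p = 1.0e-07) and Cebpa by 1.91 (SE 0.15, adjusted p = 1.5e-08).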
